A study of Rattus norvegicus with 12 samples.

Results

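The ventromedial nucleus of the hypothalamus (VMN) lies just above the arcuate nucleus (ARC) and takes part in satiety, glucose counter-regulation and sexual and defensive behaviour. Most of its neurones are glutamatergic, and the nuclear receptor Nr5a1, also called SF-1, is the transcription factor that sets them apart from neurones of the neighbouring nuclei. A sample cut from the ARC can therefore be read for VMN tissue through Nr5a1 and, less directly, other genes known from the VMN. The genes described here were 6 taken as such markers: Nr5a1, Adcyap1, Cnr1, Gda, Nkx2-2 and Slit3. Nkx2-2 and Slit3 did not follow the others when an outlying array was left out, as described below. All 6 were chosen by name, but with earlier results of these data known. All 6 were measured, by 10 of the 31042 probe sets and among 14217 gene symbols on the array. Where a gene had several probe sets, the one with the highest mean is given first and the others beside it.

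The arrays measured RNA from ARC tissue cut by laser capture microdissection, in which a laser excises a marked area from a stained frozen section, from 6 recuperated and 6 control male Wistar rats aged 3 months. Recuperated rats were born to dams kept on 8% protein in pregnancy, a low-protein diet, and were nursed by control dams from postnatal day 3. Control rats were born to control dams. All animals were later kept on standard chow. Recuperated litters were also made smaller and entirely male, whereas control litters kept both sexes, so the groups differed in the nursing environment as well as in the dam's diet. Each array held 1 animal, and the study counts litters as n. The question behind the comparison was whether growth restriction before birth followed by rapid growth while nursing changed gene expression in the ARC, and the VMN markers were read beside it because the VMN borders the captured area.

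Values are log2 expression as deposited, and differences between groups are log2 fold changes, recuperated minus control, after the median of each array was subtracted. The array medians lay between 6.21 and 6.30. A probe set above the array median is brighter than most probe sets, which is not a call of detection, and levels of different probe sets were not compared with each other. Recuperated array 4 stood apart from the other 11 before any group was compared. On it, 253 probe sets lay at least 1 log2 unit above the next highest array and 183 at least 1 log2 unit below the next lowest, against 178 and 71 on recuperated array 5, 83 and 39 on recuperated array 1, and at most 71 and 56 on any other array. The markers' own results are therefore given with and without it. The ARC marker list averaged 3.04 to 3.26 log2 units above the array median on the other 11 arrays and 1.53 on recuperated array 4. Among ARC genes, the probe set of Pomc lay below the array median on every array, at 5.53 to 6.17.

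The promoters are shown because all 6 markers were highest on the same array and 4 of them also varied together over the others, so that their start regions can be compared. Each runs from 250 bases before to 50 bases after the annotated start, 5′ to 3′ on the strand of the gene, from RefSeq on the rat assembly GRCr8. Of the 6 genes, 5 were matched, and Cnr1 is named only. Capitals mark matches on either strand to any of 7 motifs: CAAGGTCA, the extended motif bound by Nr5a1; AAGGTCA, its core, which lies inside the first; TGACG, the core of the cAMP response element; CACTT, a core of Nkx2 factors; CACGTG, an E-box; CCAAT; and TATAAA. The last 3 were added after the sequences had been seen.
Nr5a1, chr3:42895997-42896296, minus strand: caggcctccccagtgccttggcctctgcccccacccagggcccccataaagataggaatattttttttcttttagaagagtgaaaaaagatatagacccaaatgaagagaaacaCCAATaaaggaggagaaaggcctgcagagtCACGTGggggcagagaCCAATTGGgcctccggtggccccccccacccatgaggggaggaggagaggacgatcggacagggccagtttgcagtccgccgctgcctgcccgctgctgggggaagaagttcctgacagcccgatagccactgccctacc
Adcyap1, chr9:120556424-120556723, minus strand: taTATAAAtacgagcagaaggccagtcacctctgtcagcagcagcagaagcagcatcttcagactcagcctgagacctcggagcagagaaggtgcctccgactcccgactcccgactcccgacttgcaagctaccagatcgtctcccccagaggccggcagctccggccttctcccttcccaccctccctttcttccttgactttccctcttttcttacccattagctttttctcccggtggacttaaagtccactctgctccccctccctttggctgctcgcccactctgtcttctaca
Gda, chr1:228408852-228409151, minus strand: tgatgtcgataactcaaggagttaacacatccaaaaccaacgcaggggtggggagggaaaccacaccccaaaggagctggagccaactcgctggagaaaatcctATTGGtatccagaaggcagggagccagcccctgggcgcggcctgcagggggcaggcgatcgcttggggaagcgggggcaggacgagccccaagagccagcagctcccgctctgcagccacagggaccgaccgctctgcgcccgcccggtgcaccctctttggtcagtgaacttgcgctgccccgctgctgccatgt
Nkx2-2, chr3:155075573-155075872, minus strand: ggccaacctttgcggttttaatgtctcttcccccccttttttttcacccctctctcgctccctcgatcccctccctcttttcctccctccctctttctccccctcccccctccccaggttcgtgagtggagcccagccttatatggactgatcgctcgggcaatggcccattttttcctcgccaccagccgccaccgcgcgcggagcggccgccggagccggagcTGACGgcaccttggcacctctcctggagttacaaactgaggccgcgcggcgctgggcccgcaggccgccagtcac
Slit3, chr10:20075679-20075978, plus strand: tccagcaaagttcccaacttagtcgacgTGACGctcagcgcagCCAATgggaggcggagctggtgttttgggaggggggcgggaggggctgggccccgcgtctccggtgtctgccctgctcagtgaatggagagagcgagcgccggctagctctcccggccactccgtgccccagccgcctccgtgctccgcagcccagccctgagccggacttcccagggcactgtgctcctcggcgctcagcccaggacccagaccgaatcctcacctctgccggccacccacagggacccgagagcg

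No motif was present in all 5 promoters. CCAAT was found in 3 of 5, in Nr5a1, Gda and Slit3, and in 37.5% of the 33465 rat promoters of this length. In Nr5a1 it matched 3 times, and 2 of these matches, on opposite strands, overlap. TGACG was found in 2 of 5, Nkx2-2 and Slit3, against 21.2% of all promoters. CACGTG was found in Nr5a1 alone, against 6.42% of all promoters, and TATAAA in Adcyap1 alone, against 14.2%. Neither CAAGGTCA, AAGGTCA nor CACTT was found in any of the 5, against 1.52%, 4.61% and 46.2% of all promoters. These matches describe letters in these windows and nothing more.

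All 6 markers had their highest value of the 12 arrays on recuperated array 4. This was so of 13% of all probe sets. The highest value exceeded the next array by at least 1 log2 unit for 5 of the 6, against 0.815% of all probe sets, and for the remaining gene, Slit3, by 0.60. These shares are a description only, because the markers and the gene lists below were chosen with earlier results of these data known. The difference between groups was smaller than the spread between arrays for each marker. In tissue samples of this kind, fewer cells of a type and less RNA per cell cannot be told apart, and a high marker on 1 array likewise cannot be assigned to more VMN cells or to more RNA in each.

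**Figure D1:**
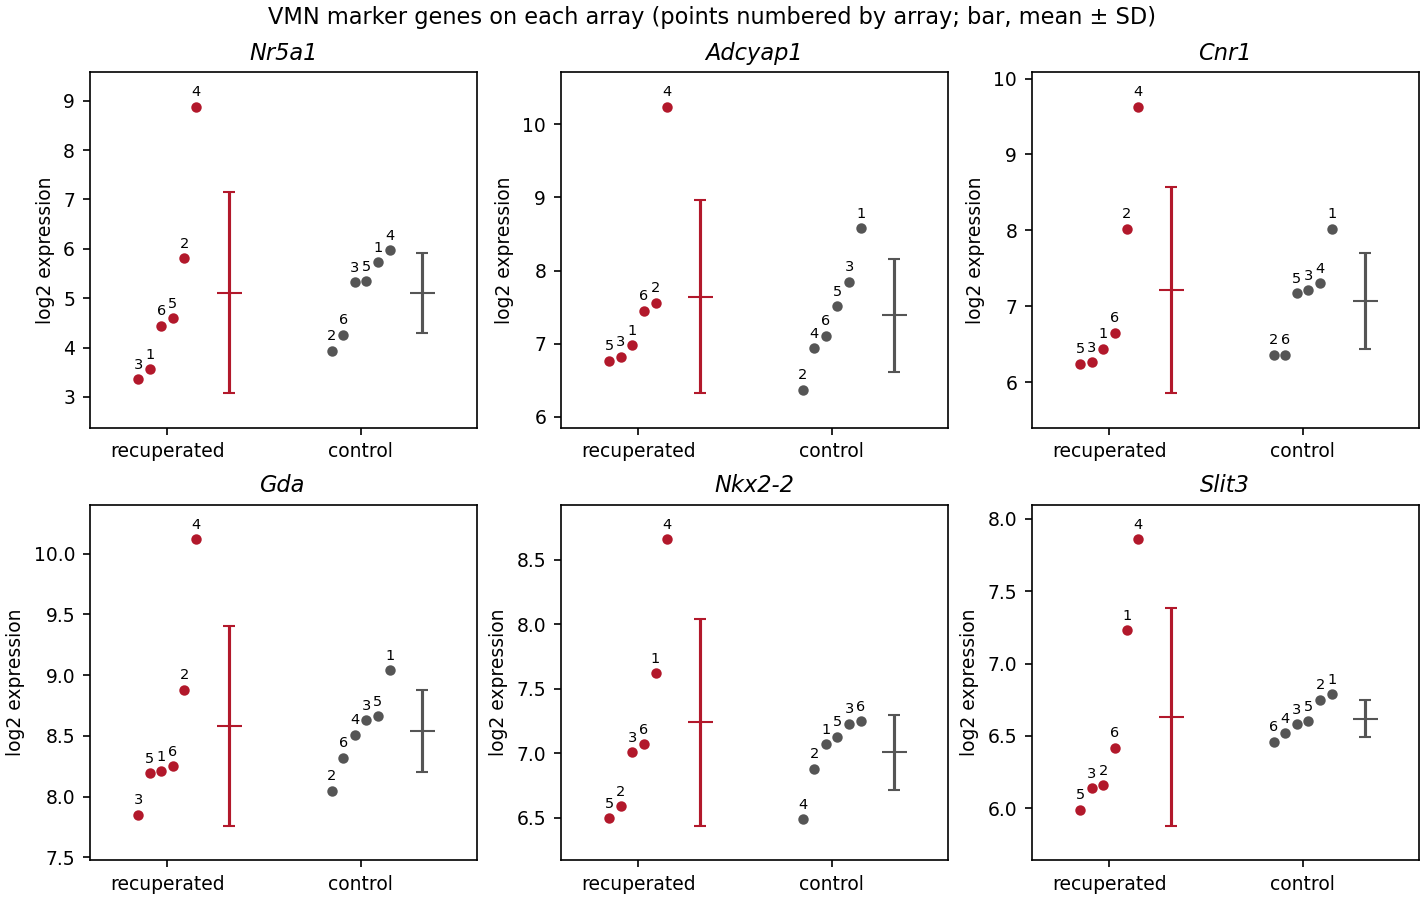
Deposited log2 expression of the 6 VMN marker genes (y axis) on each recuperated and control array, 1 point per animal numbered by array, with the mean ± SD of each group (n = 6) beside the points. Recuperated array 4 is the highest point in every panel, at 8.88 for Nr5a1 and 10.24 for Adcyap1, and the other 5 recuperated points overlap the control points.

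Nr5a1 had the widest gap, in log2 units, between 1 array and the rest. The brighter of its probe sets had a lowest value of 3.36, a median of 4.52 and a highest of 8.88 in recuperated arrays, against 3.94, 5.34 and 5.97 in control arrays. The value of 8.88 belonged to recuperated array 4, and the other 5 recuperated arrays, at 3.36 to 5.81, overlapped the control arrays. Its gap to the next array was 2.88 log2 units, or 7.36-fold, which ranked 1 of 31042 probe sets for this array. Recuperated array 4 was also the only array on which the probe set lay above the array median. Group means were 5.11 ± 2.04 in recuperated and 5.10 ± 0.81 in control arrays (log2, SD, n = 6 each), with a log2 fold change of -0.01 (SE 0.76; exact permutation test, two-sided, p = 0.998). Without recuperated array 4, the recuperated mean was 4.35 ± 0.97 (SD, n = 5) and the log2 fold change -0.76 (SE 0.45; exact permutation test, p = 0.177), and neither value exceeded the spread between arrays.

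The other probe set of Nr5a1 was dim, below the array median on all 12 arrays. It still read highest on recuperated array 4, at 4.67 against 3.10 to 3.59 elsewhere. Its log2 fold change was 0.00 (SE 0.23) over 12 arrays and -0.25 (SE 0.11) without recuperated array 4, when the exact permutation p was 0.0152 but the adjusted p from limma over all probe sets was 1. Over the other 11 arrays its values hardly followed those of the brighter probe set (r = 0.24), and both probe sets were dim there.

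Adcyap1 encodes the neuropeptide PACAP, which VMN neurones use beside glutamate. Its main probe set read 6.77, 7.21 and 10.24 as the lowest, median and highest values in recuperated arrays, against 6.37, 7.31 and 8.58 in control arrays. Recuperated array 4 held the highest value, 1.64 log2 units above control array 1 (3.12-fold), and the other 5 recuperated arrays lay inside the control range. The means were 7.64 ± 1.32 in recuperated and 7.39 ± 0.77 in control arrays (SD, n = 6 each), and the log2 fold change was 0.22 (SE 0.53; exact permutation test, p = 0.773), or -0.29 (SE 0.32; p = 0.465 by the same exact test) without recuperated array 4. A second, dimmer probe set showed the same array more sharply, at 8.38 against 3.58 to 5.81 on the others, a gap of 2.59 that ranked 3 among all probe sets. The probe sets of this gene correlated across the other 11 arrays with r = 0.56.

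Cnr1 encodes the cannabinoid receptor CB1, which sits on nerve terminals and reduces transmitter release. The lowest, median and highest values were 6.24, 6.54 and 9.63 in recuperated arrays, against 6.36, 7.19 and 8.02 in control arrays. Apart from recuperated array 4, the recuperated arrays ranged from 6.24 to 8.02 and overlapped the control arrays, with recuperated arrays 5 and 3 below all of them. Cnr1 averaged 7.21 ± 1.36 in recuperated and 7.07 ± 0.63 in control arrays (SD, n = 6 each), a log2 fold change of 0.12 (SE 0.52; exact permutation test, p = 0.887) that became -0.37 (SE 0.35; exact p = 0.364) without that array. Its second probe set was also highest there, at 8.97 against 5.07 to 7.15, but followed the first only weakly over the other 11 arrays (r = 0.24).

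Gda encodes guanine deaminase, also known as cypin, which converts guanine to xanthine and shapes dendrites in neurones. Its values were 7.85, 8.23 and 10.12 (lowest, median and highest) in recuperated arrays, against 8.05, 8.57 and 9.04 in control arrays. The 10.12 was again that of recuperated array 4, 1.06 above control array 1, while 4 of the other 5 recuperated arrays lay between 7.85 and 8.25. Means of 8.58 ± 0.82 in recuperated and 8.54 ± 0.34 in control arrays (SD, n = 6 each) gave a log2 fold change of 0.03 (SE 0.31; exact permutation test, p = 0.961), and -0.28 (SE 0.20; exact p = 0.212) without recuperated array 4. The second probe set of Gda read 10.12 there too, against 7.03 to 8.41 elsewhere, and of the 4 genes with a second probe set this pair agreed best over the other 11 arrays (r = 0.77, rho = 0.78).

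Nkx2-2 encodes a homeodomain transcription factor of the ventral neural tube, expressed in the developing VMN and also in cells of the oligodendrocyte lineage. It read 6.50, 7.04 and 8.66 in recuperated arrays, against 6.49, 7.10 and 7.25 in control arrays (lowest, median and highest). The array after recuperated 4 was recuperated array 1, at 7.62, whereas it was control array 1 for Adcyap1, Cnr1 and Gda and control array 4 for Nr5a1. The means were 7.24 ± 0.80 in recuperated and 7.01 ± 0.29 in control arrays (SD, n = 6 each), with a log2 fold change of 0.21 (SE 0.31; exact permutation test, p = 0.632), or -0.07 (SE 0.21; exact p = 0.745) without recuperated array 4.

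Slit3 encodes a secreted guidance protein that repels growing axons through ROBO receptors. Its values were 5.99, 6.29 and 7.86 in recuperated arrays, against 6.46, 6.59 and 6.79 in control arrays (lowest, median and highest). Recuperated array 1, at 7.23, again followed recuperated array 4, and the other 4 recuperated arrays, at 5.99 to 6.42, all lay below the 6 control arrays. Slit3 thus took values on both sides of a narrow control range, and the means of 6.63 ± 0.75 in recuperated and 6.62 ± 0.13 in control arrays (SD, n = 6 each) differed by a log2 fold change of 0.00 (SE 0.27; exact permutation test, p = 0.996). Without recuperated array 4 it was -0.25 (SE 0.20; exact p = 0.266).

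Over the whole array, 0 of 31042 probe sets (0%) passed an adjusted p of 0.05 between the groups in limma, and 1071 (3.45%) had an unadjusted P under 0.05. By the threshold of the study, 1.3-fold with P under 0.05, 371 probe sets (1.2%) were higher and 395 (1.27%) lower in recuperated arrays. Of the 6 markers, 0 were called by any of these rules. Their median log2 fold change was 0.07, against -0.03 over all probe sets, and -0.29 without recuperated array 4, against -0.03 over all probe sets. The adjusted p was 0.999 for each of the 6 over 12 arrays. The SE, 0.27 to 0.76 over the 6 markers, sets how small a difference 12 arrays could show.

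**Figure D2:**
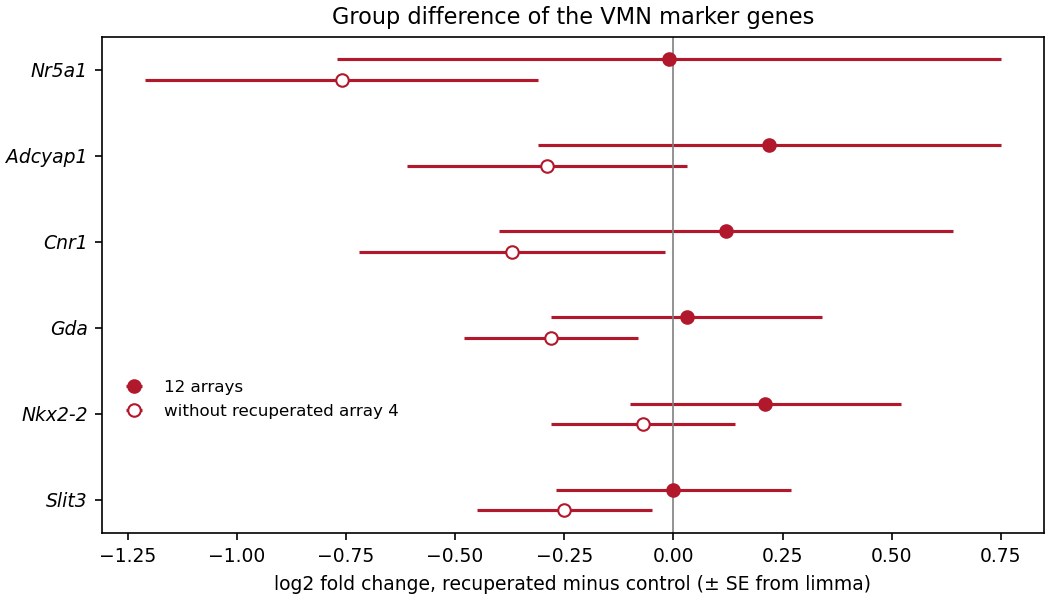
Log2 fold change of each VMN marker gene, recuperated minus control (x axis), with its SE from limma, over 12 arrays (filled) and over 11 arrays without recuperated array 4 (open). Each marker lies further to the left without that array, for Nr5a1 at -0.76 rather than -0.01.

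Taking the mean of the 6 markers, each as log2 units above the array median, recuperated array 4 stood at 2.95. The other 5 recuperated arrays lay between -0.03 and 0.87 and the control arrays between 0.15 and 1.28. The mean was 0.80 ± 1.10 in recuperated arrays (SD, n = 6), 0.37 ± 0.34 in recuperated arrays without array 4 (SD, n = 5), and 0.71 ± 0.39 in control arrays (SD, n = 6). Control array 1, at 1.28, was the next highest, and recuperated array 3, at -0.03, the lowest. The spread of the control arrays alone, from 0.15 to 1.28, therefore exceeded the difference between the group means.

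Whether the markers vary together over animals was examined for all 15 pairs of their main probe sets. Each point is 1 animal on 1 array. Over 12 arrays all 15 pairs correlated positively, with Pearson's r of 0.49 to 0.97 and a median of 0.74. By permutation tests with Benjamini-Hochberg adjustment over the 15 pairs, 10 passed 0.05 by Pearson's r and 5 by Spearman's rho. Without recuperated array 4, r ran from -0.48 to 0.93 with a median of 0.19, 11 of 15 pairs were positive, and 6 passed by r and 5 by rho.

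The pairs that kept their correlation over the other 11 arrays were mostly those among Nr5a1, Adcyap1, Cnr1 and Gda. Cnr1 and Gda correlated most closely, with r = 0.97 and rho = 0.94 over 12 arrays (permutation p = 1e-05, the smallest that 100000 resamples can give; adjusted p = 0.00015) and r = 0.93 and rho = 0.92 over 11 arrays (permutation p = 3e-05, adjusted p = 0.00045). Nr5a1 followed both of them over 11 arrays, with r = 0.88 against Gda (rho = 0.84; permutation p = 0.00053, adjusted p = 0.00395) and r = 0.87 against Cnr1 (rho = 0.84; permutation p = 0.00079, adjusted p = 0.00395). Because Nr5a1 was below the array median on all of these 11 arrays, this covariation was seen in dim values. Adcyap1 correlated over 11 arrays with Gda at r = 0.83 (rho = 0.87; permutation p = 0.00139, adjusted p = 0.00521) and with Cnr1 at r = 0.77 (rho = 0.80; permutation p = 0.00482, adjusted p = 0.0145). Only Nr5a1 with Adcyap1 among these 6 pairs missed the threshold over 11 arrays (r = 0.61, rho = 0.53; permutation p = 0.0432, adjusted p = 0.0925), after r = 0.87 over 12 arrays (adjusted p = 0.00375).

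Leaving out the 2 arrays farthest from the median of the first gene of each pair, 3 of the 15 pairs passed by r: Cnr1 with Gda (r = 0.90, adjusted p = 0.0048 from a permutation test), Nr5a1 with Cnr1 (r = 0.86, permutation test, adjusted p = 0.0174) and Nr5a1 with Gda (r = 0.83, permutation test, adjusted p = 0.0194). The pairs of Adcyap1 with Gda and Cnr1 no longer did, at r = 0.73 and r = 0.64. Within the 6 control arrays, where recuperated array 4 has no part, Adcyap1 with Gda had r = 0.95 (exact permutation p = 0.0111, adjusted p = 0.104), Cnr1 with Gda r = 0.93 (exact permutation p = 0.0139, adjusted p = 0.104) and Nr5a1 with Cnr1 r = 0.88 (exact permutation p = 0.025, adjusted p = 0.125). None of the 15 pairs passed after adjustment in control arrays, and 4 had an unadjusted p under 0.05. Within the 6 recuperated arrays 7 pairs passed by r and 2 by rho, with recuperated array 4 among them.

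Nkx2-2 and Slit3 did not follow the other 4 markers over the 11 arrays. Against Nr5a1, Adcyap1, Cnr1 and Gda, Nkx2-2 had r of -0.48, 0.19, -0.26 and -0.11, and Slit3 had r of -0.14, 0.13, 0.03 and 0.12. The adjusted p of these 8 pairs ran from 0.259 to 0.935 by permutation tests. Over 12 arrays the same pairs had r of 0.49 to 0.74, of which 3 passed: Adcyap1 with Nkx2-2 (r = 0.74, permutation test, adjusted p = 0.0458), Adcyap1 with Slit3 (r = 0.67, permutation test, adjusted p = 0.0484) and Gda with Slit3 (r = 0.66, permutation test, adjusted p = 0.0484). By rho, 0 of the 8 passed with either set of arrays.

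Nkx2-2 and Slit3 correlated with each other by r, at r = 0.88 over 12 arrays (rho = 0.66; permutation p of r = 0.00085, adjusted p = 0.00212) and r = 0.70 over 11 arrays (rho = 0.55; permutation p of r = 0.0155, adjusted p = 0.0388). By rho this pair passed with neither set of arrays (permutation tests, adjusted p = 0.0583 over 12 arrays and 0.206 over 11). Recuperated array 1 was the second highest for both genes. Without the 2 arrays farthest from the median of Nkx2-2, which were recuperated arrays 4 and 1, r was 0.50 (permutation test, adjusted p = 0.279). In control arrays r was -0.03, and in recuperated arrays it was 0.97 (exact permutation p = 0.00139, adjusted p = 0.0139).

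**Figure D3:**
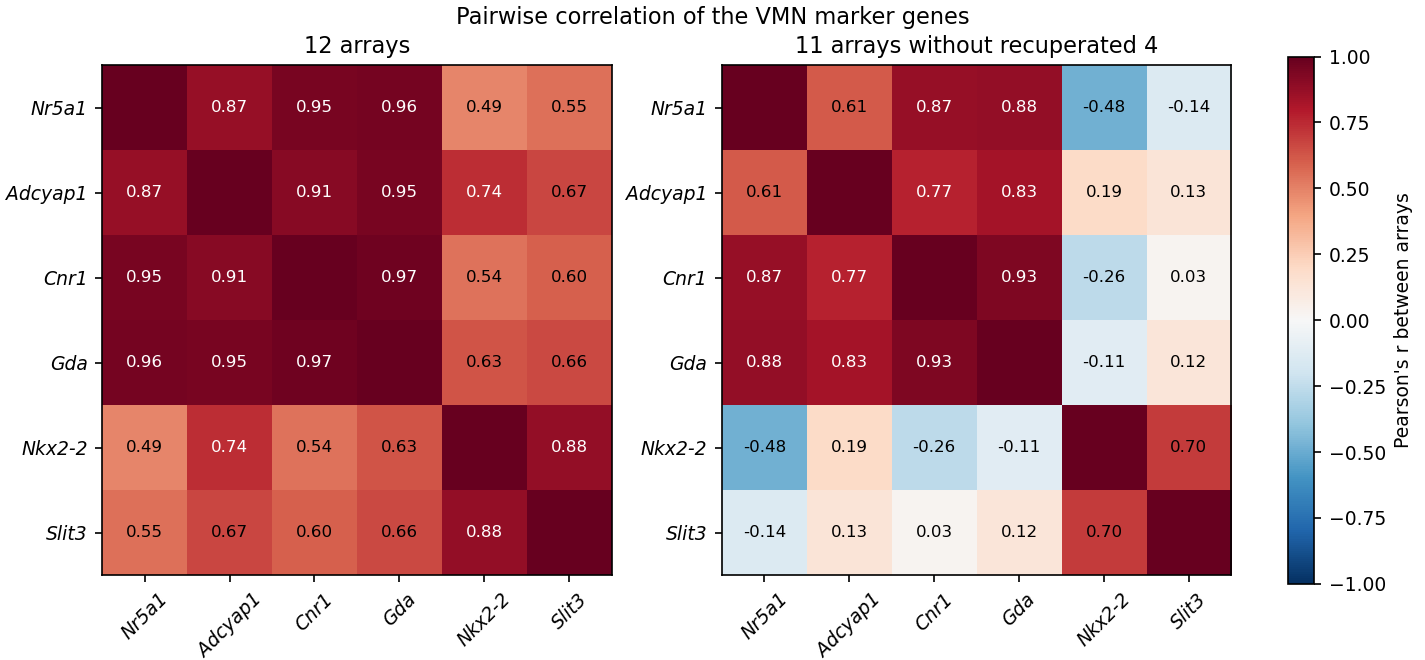
Pearson's r between arrays for each pair of VMN marker genes, over 12 arrays (left) and over 11 arrays without recuperated array 4 (right), coloured from -1 (blue) to 1 (red). The block of Nr5a1, Adcyap1, Cnr1 and Gda keeps r of 0.61 to 0.93 over 11 arrays, while the squares that join it to Nkx2-2 and Slit3 lie between -0.48 and 0.19.

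**Figure D4:**
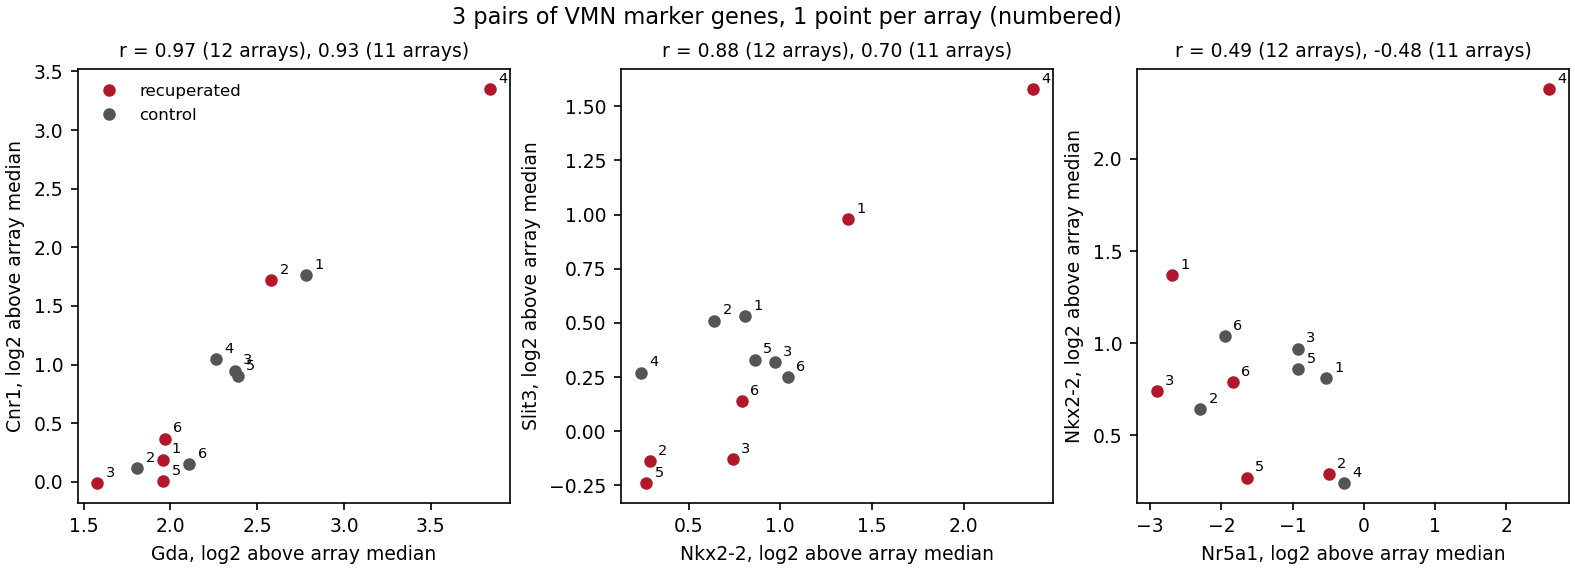
Log2 units above the array median of Gda and Cnr1 (left), Nkx2-2 and Slit3 (middle) and Nr5a1 and Nkx2-2 (right), 1 point per array, numbered, recuperated in red and control in grey. Recuperated array 4 lies at the top right of each panel, and without it r is 0.93, 0.70 and -0.48 from left to right.

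Split in this way, which was done after the values were seen, the mean of Nr5a1, Adcyap1, Cnr1 and Gda was 3.44 log2 units above the array median on recuperated array 4, -0.20 to 1.27 on the other 5 recuperated arrays and -0.06 to 1.58 on the control arrays. Control array 1 (1.58) and recuperated array 2 (1.27) were next after recuperated array 4. The mean of Nkx2-2 and Slit3 was 1.98 on recuperated array 4, 0.02 to 1.18 on the other recuperated arrays and 0.26 to 0.67 on the control arrays. Recuperated array 1, the highest of the others here at 1.18, was at 0.05 for the mean of the 4, and recuperated array 2, at 1.27 for the mean of the 4, was at 0.07 here.

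Each marker was also set against the mean of the other 5, with all 31032 probe sets outside the marker genes ranked by the same measure, as a description. For Gda, no other probe set correlated as highly with the mean of the other 5, with r = 0.98 over 12 arrays and r = 0.96 over 11. For Cnr1, 29 probe sets were higher over 12 arrays and 14 over 11, and for Adcyap1, 20 and 67. For Nr5a1 it was 137 over 12 arrays and 629 over 11, where r was 0.62. Nkx2-2 and Slit3, at r of 0.66 and 0.69 over 12 arrays, fell to r of -0.12 and 0.11 over 11, with 17982 (57.9%) and 10656 (34.3%) of the other probe sets above them.

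Among probe sets with 1 gene symbol, leaving out those below the median of every array, those that most resembled the mean of the 6 markers over 12 arrays were of Fam81a, Arpp21, Grm8 and Ppp3ca (r = 0.97), Calb1 and Cbln1 (r = 0.96), and Ets2, Opcml, Vsnl1 and Nptx1 (r = 0.95). Grm8 encodes a metabotropic glutamate receptor, Ppp3ca a calcineurin subunit, Calb1 and Vsnl1 calcium-binding proteins, and Cbln1 a synaptic organiser. In all, 560 probe sets (1.8%) had r of at least 0.8 over 12 arrays and 75 (0.242%) over the other 11. Over these 11 arrays the order within the same probe sets was Grm8 (r = 0.90), Vsnl1, Olfml3, Vamp7 and Ppp3ca (r = 0.88), Zfp655, Fam81a, Ttyh2 and Cfap97 (r = 0.87) and Nptn (r = 0.86), so that 4 of 10 genes were common to both. Grm8 read 3.16 to 5.33 on these 11 arrays, below the median of each, so its covariation there was seen in dim values. It entered the ranking only through its 6.81 on recuperated array 4. Arpp21 likewise entered only through that array, at 7.20 against 3.62 to 4.91 on the others. Olfml3 is an example of a gene that followed the markers on 11 arrays but not on recuperated array 4, where its difference from the highest of the other arrays was -2.19, and its r over 12 arrays was -0.28.

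At the other end over 12 arrays stood Stra6, which encodes a retinol transporter, and Itgb4, an integrin subunit (r = -0.96), followed by Ppp1r1b, which encodes DARPP-32, Lhx2, a transcription factor of tanycytes, and Tshr, the thyrotropin receptor (r = -0.95). Over 11 arrays the lowest of them were Cops3 (r = -0.88), Tshr (r = -0.87), Tmem39b and Rbm5 (r = -0.86) and Tmem67 (r = -0.85). Tshr alone was in both sets of 5.

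The partial means of the markers were compared in the same way. For the mean of Nr5a1, Adcyap1, Cnr1 and Gda, 6 of the 10 most similar genes were common to 12 and 11 arrays, led by Vsnl1 with r = 0.98 over 12 arrays and r = 0.94 over 11. For the mean of Nkx2-2 and Slit3, 0 of 10 were common. Paqr9 (r = 0.94) led over 12 arrays, and Atg4d and Gfap, the intermediate filament of astrocytes, over 11 (r = 0.93). Gfap went against Nkx2-2 and Slit3 on recuperated array 4, where its main probe set was the lowest of the 12 arrays, at 11.38 against 12.18 to 12.81, and its r over 12 arrays was -0.43.

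Other genes known from the VMN were read from a list of 18, of which 14 were measured. Of these, 0 were called higher or lower between the groups at 1.3-fold with P under 0.05, and their median log2 fold change was 0.07, against -0.03 over all probe sets. Without recuperated array 4 the median of the list was -0.15, the opposite sign, against -0.03 over all probe sets. On recuperated array 4, 10 of the 14 were highest and 2 lowest, against 13% and 14.2% of all probe sets. The 4 that stood at least 1 log2 unit above the next array were Nr2f2, a transcription factor, at 10.92 against 7.43 to 9.25 on the other arrays, Cbln1 at 11.60 against 8.30 to 10.14, Cckbr, the receptor for cholecystokinin and gastrin, at 6.87 against 3.27 to 5.57, and Lmo3 at 9.78 against 7.55 to 8.69. Of these, Cckbr lay above the array median on recuperated array 4 alone, so its gap was measured from dim values. Slc17a6, the vesicular glutamate transporter of most hypothalamic glutamatergic neurones, read 11.61 against 9.03 to 10.65.

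Not every gene of this list went the same way. Dlk1 had its lowest value on recuperated array 4, at 7.55 against 8.61 to 9.76, and so did Esr1, the oestrogen receptor expressed in the ventrolateral VMN and also in the ARC, at 6.72 against 7.34 to 8.34. Bdnf, which encodes a growth factor expressed in the VMN, was highest at 7.55 against 4.75 to 6.64. Over the other 11 arrays, the median r of the 14 genes with the mean of Nr5a1, Adcyap1, Cnr1 and Gda was 0.43, against -0.05 over all probe sets, and 11 of the 14 had a positive r. The SLIT and ROBO genes and the general neuronal genes, described below, had similar medians of 0.39 and 0.35. The mean of the 14 genes had r = 0.82, against 0.83 and 0.75 for the means of those lists. Nr2f2 and Cbln1 reached r = 0.86 each. With the mean of Nkx2-2 and Slit3 the median r of the list was -0.11, against 0.04 over all probe sets.

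Among relatives and partners of Nr5a1 and Nkx2-2, 8 of 11 genes were measured. Nr5a2, the closest relative of Nr5a1 and in other tissues a regulator of bile acid and steroid genes, was lowest on recuperated array 4, at 3.04 against 6.24 to 7.15, a gap of -3.24. This reverse of the markers was seen on that array only. Over the other 11 arrays Nr5a2 had r = 0.64 with Nr5a1 and r = 0.65 with the mean of Nr5a1, Adcyap1, Cnr1 and Gda. Nr0b1, which encodes DAX-1, a partner and repressor of Nr5a1, was highest on recuperated array 4, at 7.01 against 5.13 to 6.32. Of the 8, 0 were called higher and 1 lower between the groups, against 1.2% and 1.27% of all probe sets. The 1 called was Nkx6-2, with a log2 fold change of -0.44 (exact permutation test, p = 0.026), whose adjusted p missed 0.05. Without recuperated array 4 it was -0.42, and its P from limma no longer passed 0.05. Nkx2-1, a homeodomain factor of the whole ventral hypothalamus, ranged from 7.66 to 8.09 on the other arrays and read 8.23 on recuperated array 4.

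For the receptors and kin of PACAP, 10 of 10 genes were measured and 0 were called between the groups. Adcyap1r1, the PAC1 receptor that is selective for PACAP, read 10.69 on recuperated array 4, within the 9.49 to 10.87 of the other arrays, so the receptor did not share the height of its ligand. Vipr1 and Vipr2, which encode receptors shared by PACAP and VIP, also lay within the range of the others, at 4.28 and 5.48. The 2 lowest on that array were Ghrh, the releasing hormone of growth hormone made in the ARC, at 7.45 against 9.67 to 10.57, and Glp1r, the GLP-1 receptor, at 3.91 against 5.29 to 6.60.

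Of the endocannabinoid genes, 8 of 12 were measured and 0 were called. Plcb1, which encodes a phospholipase C upstream of endocannabinoid synthesis, was highest on recuperated array 4, at 9.05 against 7.60 to 8.90, and correlated with the mean of the 4 markers over 11 arrays at r = 0.80. The list as a whole did not: its median r was -0.18, against -0.05 over all probe sets, and 3 of the 8 had a positive r. Mgll, which encodes the enzyme that degrades 2-arachidonoylglycerol, read 7.46, within the 7.28 to 7.92 of the others, and Cnrip1, which encodes a protein that binds CB1, read 10.86, within 10.40 to 10.98. Of 13 measured genes of purine breakdown and salvage, the pathway of Gda, 0 were called, 0 were highest on recuperated array 4 and 5 were lowest. They included Xdh, which encodes the enzyme that takes xanthine to uric acid, at 5.39 against 6.17 to 6.96, and Aprt, at 10.17 against 10.53 to 11.15. Nt5e, an ecto-nucleotidase, was not high on that array, at 4.80 against 3.92 to 6.02, yet had r = 0.86 with the mean of the 4 markers over the other 11 arrays. The median r of the purine list was -0.13, and 4 of the 13 had a positive r.

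Of the SLIT and ROBO genes other than Slit3, 11 of 14 were measured and 0 were called. On recuperated array 4, 4 of the 11 were highest and 0 lowest. Slit2, another ligand, read 10.25, which was 1.27 log2 units above the next array, and the receptors Robo1 and Robo2 read 6.66 against 5.12 to 5.97 and 6.13 against 4.03 to 5.58. Slit1 read 5.11, within the 4.98 to 5.69 of the others. The mean of the 11 genes correlated with the mean of the 4 markers over 11 arrays at r = 0.83.

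Markers of other cells did not all go the same way as the VMN markers, and the values are given here for each list. On recuperated array 4, 13 of 18 ARC genes were lowest, 10 of them by at least 1 log2 unit, against 0.59% of all probe sets: Crabp1 read 7.02 against 10.87 to 11.82, Tac3, which encodes neurokinin B, 5.76 against 9.31 to 10.04, Npy 7.19 against 10.60 to 11.75, and Th, the enzyme that starts dopamine synthesis, 6.84 against 9.67 to 10.10. Of the other 5, Slc18a2, Prlr and Lepr lay within the range of the other arrays, and Penk and Pdyn, the precursors of enkephalins and dynorphins, were highest there, at 12.61 against 10.46 to 11.69 and 11.55 against 10.90 to 11.27. Of 10 tanycyte and ependymal genes, 9 were lowest on that array, and the mean of the list was -0.68 relative to the array median, against 0.90 to 1.34 on the other arrays. Vim, an intermediate filament of tanycytes, read 7.94 against 10.15 to 11.07.

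Over the other 11 arrays the ARC list hardly varied with the markers. Its mean correlated with the mean of Nr5a1, Adcyap1, Cnr1 and Gda at r = 0.12, and that of the tanycyte list at r = -0.53. Between the groups, 2 of the 18 ARC genes were called lower, against 1.27% of all probe sets, and neither passed adjustment. They were Slc6a3, the dopamine transporter, at a log2 fold change of -0.71, and Prlr, the prolactin receptor, at -0.47. For Slc6a3 the limma P was 0.0459, but the exact permutation p was 0.0606. For Prlr the limma P was 0.00921 and the exact permutation p 0.0173. Leaving out recuperated array 4, where Slc6a3 was lowest, its log2 fold change was -0.40 and the call was lost, whereas Prlr, at -0.42, was still called.

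General neuronal genes were high with the markers. Of 11, 8 were highest on recuperated array 4, and the mean of the list was 5.39 above the array median, against 4.49 to 4.84 elsewhere. Over the other 11 arrays it correlated with the mean of the 4 markers at r = 0.75. Rbfox3, the NeuN gene, read 11.01 against 8.87 to 9.62, and Nefm, a neurofilament, 10.09 against 7.79 to 8.63. Oligodendrocyte genes averaged 3.23 on that array, against 2.59 to 3.06, with 6 of 10 highest, microglial genes 0.12 against 0.47 to 1.09, with 5 of 9 lowest, and astrocyte genes 4.72 against 4.74 to 4.93. By group, the mean of the neuronal list ran from 4.49 to 5.39 in recuperated and 4.60 to 4.84 in control arrays, that of the ARC list from 1.53 to 3.26 in recuperated and 3.12 to 3.25 in control arrays, and that of the tanycyte list from -0.68 to 1.34 in recuperated and 0.90 to 1.29 in control arrays. The part of these cell types in the covariation of the markers was not tested.

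Of 15 measured genes of other hypothalamic nuclei, 1 was highest on recuperated array 4, Pou3f3, at 8.16 against 6.52 to 7.26, and 5 were lowest. Between the groups, 1 gene of this list was called higher, against 1.2% of all probe sets. This was Pmch, which encodes melanin-concentrating hormone of the lateral hypothalamus, at 8.50 ± 1.61 in recuperated and 6.98 ± 1.18 in control arrays (log2, SD, n = 6 each). Its limma P was 0.0463, but its exact permutation p was 0.0974. The call was lost without recuperated array 4, at a log2 fold change of 1.35. Of the 7 pituitary genes 1 was called lower, against 1.27% of all probe sets. This was Lhb, the luteinising hormone subunit, at a log2 fold change of -0.47. Its limma P was 0.0423, but its exact permutation p was 0.0693. This call too was lost without that array, at -0.38. Neither passed adjustment. Endothelial genes averaged 1.05 against 0.61 to 1.14, pituitary genes -2.26 against -2.03 to -0.30, and blood genes -0.67 against -0.75 to -0.03. RNA quality was read from control transcripts with probe sets at both ends, where a larger excess of 3′ over 5′ signal goes with more broken RNA. The excess of actin was 1.96 log2 units on recuperated array 4, against 1.04 to 1.90 on the others, and over those 11 it correlated with the mean of the 4 markers at r = 0.72 (rho = 0.79). For GAPDH the excess was 1.84 against 1.49 to 2.63, with r = 0.19, and for hexokinase 0.50 against -0.45 to 0.57, with r = 0.19. The part of RNA quality in the result was not tested.

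**Figure D5:**
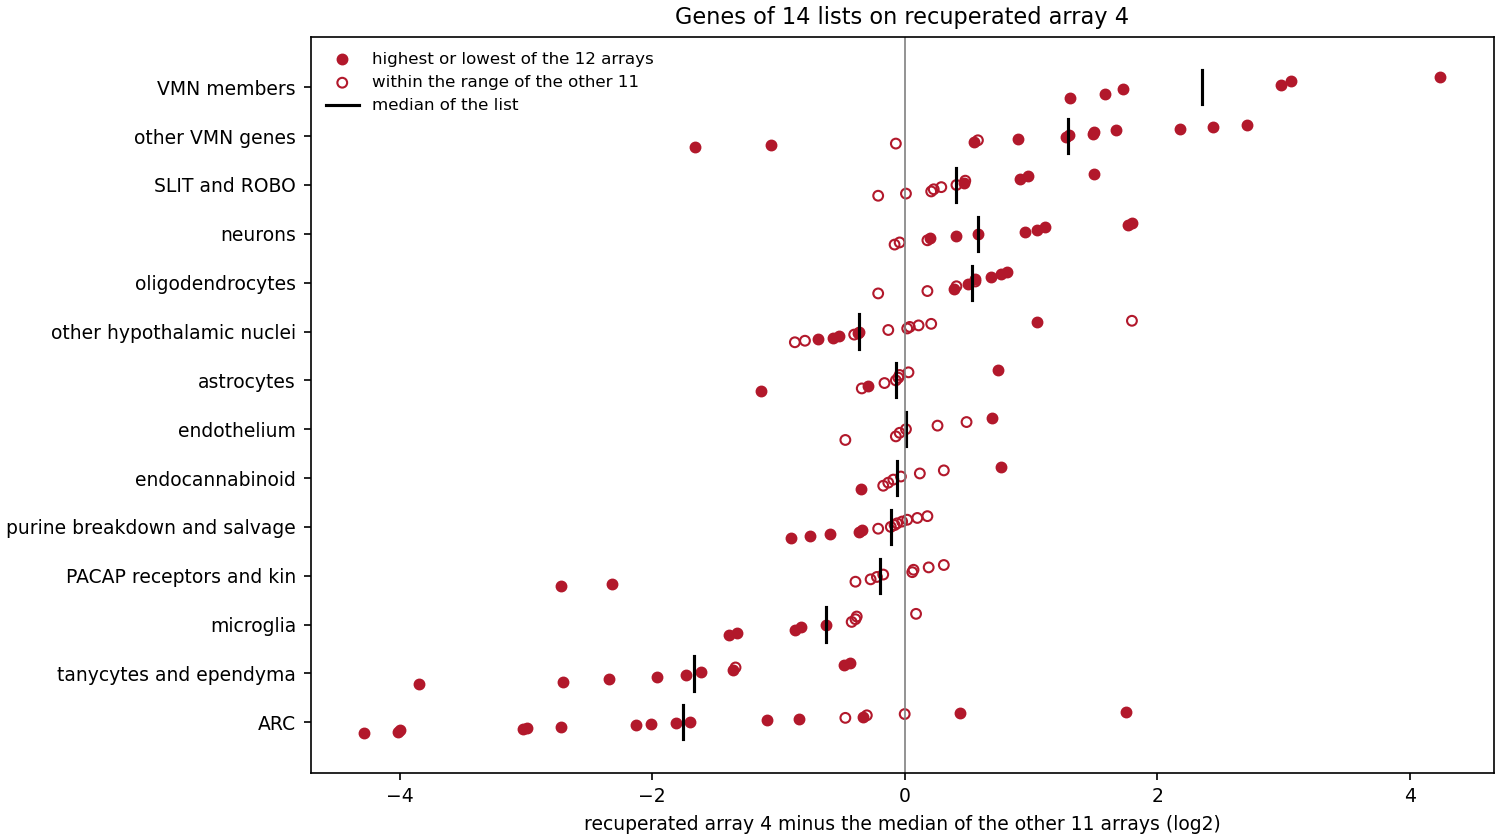
Recuperated array 4 minus the median of the other 11 arrays (x axis, log2) for each measured gene of 14 lists, filled where that array was the highest or lowest of the 12, with the median of each list as a bar. The VMN markers (median 2.35) and other VMN genes (1.29) lie to the right of 0, the ARC genes (-1.76) and tanycyte genes (-1.67) to the left, and the median over all probe sets is -0.05.

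Htr2a, the serotonin receptor gene that the study followed in both nuclei, was set against each of the 6 markers. Over 12 arrays r was 0.19 to 0.43 and rho -0.07 to 0.20, with an adjusted p of 0.557 for each of the 6 (permutation tests). Without recuperated array 4, r was -0.30 to 0.16 and the adjusted p 0.774 to 0.927 (permutation tests).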

How the data were processed

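RNA of laser-captured ARC tissue was amplified and hybridised to Affymetrix rat genome arrays, 6 recuperated and 6 control, 1 animal per array. The authors deposited log2 expression values for 31099 probe sets. RMA, the method named, removes background, brings all arrays to the same distribution and combines probes into 1 value per probe set. Per the submitters' processing notes it was run in Affymetrix Expression Console, and the version is not given in the sources used here. Because the arrays were already equalised, a rise shared by most genes on 1 array would not appear in these values.

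From the deposited log2 values, 57 control probe sets were set aside and the median of each array was subtracted. Of the 31042 probe sets left, 20826 carried 1 symbol in the platform annotation, 436 several and 9780 none. Groups were taken from the sample titles and compared with limma 3.58.1 (lmFit and eBayes) in R 4.3.3, with Benjamini-Hochberg adjustment over the 31042, and single probe sets by exact permutation, two-sided, over the 924 arrangements of 12 arrays, which allows no p below 0.00216. Correlations were tested with two-sided permutation tests, 100000 resamples for 10 or more arrays and all pairings for 6. Tables came from pandas 2.3.3, scipy 1.17.1 and numpy 2.4.6 in Python 3.11.15 and plots from matplotlib 3.10.9. The fit and the correlation test were checked on simulated data.

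The markers and the gene lists were chosen with earlier results of these data known. Named genes are all 6 markers; list genes past 1.3-fold with P under 0.05 or at least 1 log2 unit beyond the other arrays on recuperated array 4, with up to 4 examples a list; and, among probe sets with 1 symbol and above the array median on at least 1 array, the 10 most and 5 least similar genes to the marker mean. Others (Mgll, Cnrip1, Vipr1, Vipr2, Adcyap1r1, Nkx2-1, Slit1, Bdnf, Nt5e, Plcb1, Olfml3, Pomc, Penk, Pdyn, Slc18a2, Lepr, Pou3f3) were named for their role or with their values in view. Results were recomputed without subtraction of medians, with quantile normalization, without dim probe sets, with the methods' t-test, with array weights, with the animal number as a block, with the probe sets of each gene averaged, with group means subtracted and without each array in turn. The 2 partial marker means and the leave-one-out values of the similarity counts and of Htr2a were added after seeing the data. Animals of equal number in the 2 groups are not linked by the labels. Arrays give no read depth, and their number limits the precision. P-values of group differences set the difference against the variation between these animals. Those of correlations set the correlation against permuted pairings of the same arrays.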

Additional observations from a re-analysis of the deposited data

Results flagged for a closer look

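In 22 groups of 6 arrays, for each of the 10 probe sets and the marker mean in each treatment group, the highest and the lowest array were set against the rest of the group. In 5 of the 22, all among recuperated arrays and all on recuperated array 4, the highest array lay so far from the next that it stood apart by Dixon's test. These were the second Nr5a1 probe set at 4.67, both Adcyap1 probe sets at 10.24 and 8.38, the second Gda probe set at 10.12 and the mean of the 6 markers at 2.95 log2 units above the array median. The gap to the next recuperated array was 0.82, 0.79, 0.64, 0.76 and 0.70 of the range of the group, in that order. Chance alone would mark roughly 1 such group in 22, and the 5 come from 1 array, so they are not separate events.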

How the results depend on the processing

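In every alternative run, 0 of the 6 markers were called between the groups, including the animal number as a replicate block (0 called). The labels do not link animals of equal number. The deviations of same-numbered arrays correlated between -0.16 and 0.08, and 1 of 6 arrays matched its own number best. Such weak correlations cannot show that the animals were unpaired. The small fold changes turned sign for Nr5a1 (0.01) and Slit3 (0.02) without median subtraction, and with array weights for Adcyap1 (-0.02), Cnr1 (-0.10) and Gda (-0.12). Leaving out 1 array at a time, the log2 fold change ran from -0.76 to 0.34 for Nr5a1, -0.29 to 0.46 for Adcyap1, -0.37 to 0.31 for Cnr1, -0.28 to 0.18 for Gda, -0.07 to 0.35 for Nkx2-2 and -0.25 to 0.12 for Slit3. The number of pairs that passed, 10 over 12 arrays, ran from 6 without recuperated array 4 to 12, and was 7 with quantile normalization or with the mean of all probe sets. The correlation with Nr5a1 ran from -0.48 to 0.64 for Nkx2-2 and -0.14 to 0.77 for Slit3, and that of Nkx2-2 from -0.26 to 0.68 with Cnr1 and -0.11 to 0.72 with Gda, the lower end always without recuperated array 4. With dim probe sets left out, 143 rather than 253 stood at least 1 log2 unit above the next array on recuperated array 4, since fewer were tested. That filter gives no value for Nr5a1. Probe sets with r of at least 0.8 with the marker mean, 560 in all, numbered 75 to 738 with 1 array left out and 150 for the mean of Nkx2-2 and Slit3. Over all 420 alternative values, 348 were the same as the main result. For correlations and fold changes this meant the same direction and side of the threshold. For counts and the marker level it meant only a value close to the main one. Nearly all of the settings pooled here kept recuperated array 4, so the totals say little about pairs that rest on that array. Of the 240 pair correlations, 201 were the same, and of the 113 fold changes, 29 turned sign. The cause of these changes was not tested. The dim signal of Nr5a1 limits its values on all arrays but 1.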
